A study of Mus musculus with 4 samples.

Results

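Genes that mark mast cells are described here across the 4 arrays of the study, 9 in all: Cma1, Cpa3, Mcpt4, Tpsb2, Kit, Fcer1a, Ms4a2, Gata2 and Hdc. They were chosen by name, with earlier results of these data known. All 9 had at least 1 probe whose RefSeq accession maps to the gene, which made 9 of 22911 named genes and 11 of 56605 probes on the array. The arrays profiled cells labelled as peritoneal macrophages, taken from a wild-type or a LysM-St18flox mouse and either left without stimulus (0 h) or given lipopolysaccharide (LPS), the bacterial ligand of Toll-like receptor 4, for 3 h. All mice had received 4% thioglycollate, an irritant that recruits leukocytes, and the peritoneal lavage was taken after 3 days, so all 4 groups share that treatment. The titles call the cells PEC, and a peritoneal exudate usually contains more than macrophages. The name LysM points to the lysozyme promoter, active in the myeloid lineage (macrophages, neutrophils) and often chosen to drive Cre there, and flox to St18, a transcription factor gene; the Cre allele itself is not given. The dose of LPS and the age and sex of the mice are not given in the sources used here.

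Mast cells are tissue-resident granulocytes, and the peritoneal cavity is a classic source of the connective tissue type. They need the receptor tyrosine kinase KIT to survive and bind immunoglobulin E through the high-affinity receptor FcεRI. Their granules store histamine with chymases, tryptases and carboxypeptidase A3. GATA2 is a transcription factor required for the lineage. Several of these genes are not exclusive to mast cells: basophils use FcεRI, GATA2 and histidine decarboxylase, progenitors use KIT and GATA2, and activated macrophages and neutrophils can make histidine decarboxylase.

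Each group had 1 array, so no difference below has a replicate check and none was tested. Mouse, culture, array and group cannot be told apart. Levels are log2 of the processed spot signal minus the array's 75th percentile, so a level of 0 lies at that percentile, which was a signal of 672 in wild-type 0 h, 755 in wild-type 3 h, 1067 in LysM-St18flox 0 h and 882 in LysM-St18flox 3 h. The ± values are the error that the feature extraction software gives each spot, which ranged from 0.14 to 0.25 (log2) for the members' spots above background and covers the measurement of the spot only. Of the members' 44 spots, 32 were well above background, and none was saturated or an outlier. The wild-type 0 h array stood apart: over 4217 genes with several probes, the median deviation of a probe from its gene's mean was 0.16 there and at most 0.09 on another array. It enters the genotype difference at 0 h and the wild-type LPS difference, and not the genotype difference at 3 h. Of the St18 probes, 1 had signal in the wild-type arrays alone and was at least 7.07-fold lower in LysM-St18flox at 0 h and 8.48-fold lower at 3 h. The other had none on the 4 arrays, and the position of both relative to the floxed part is not known here.

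**Figure D1:**
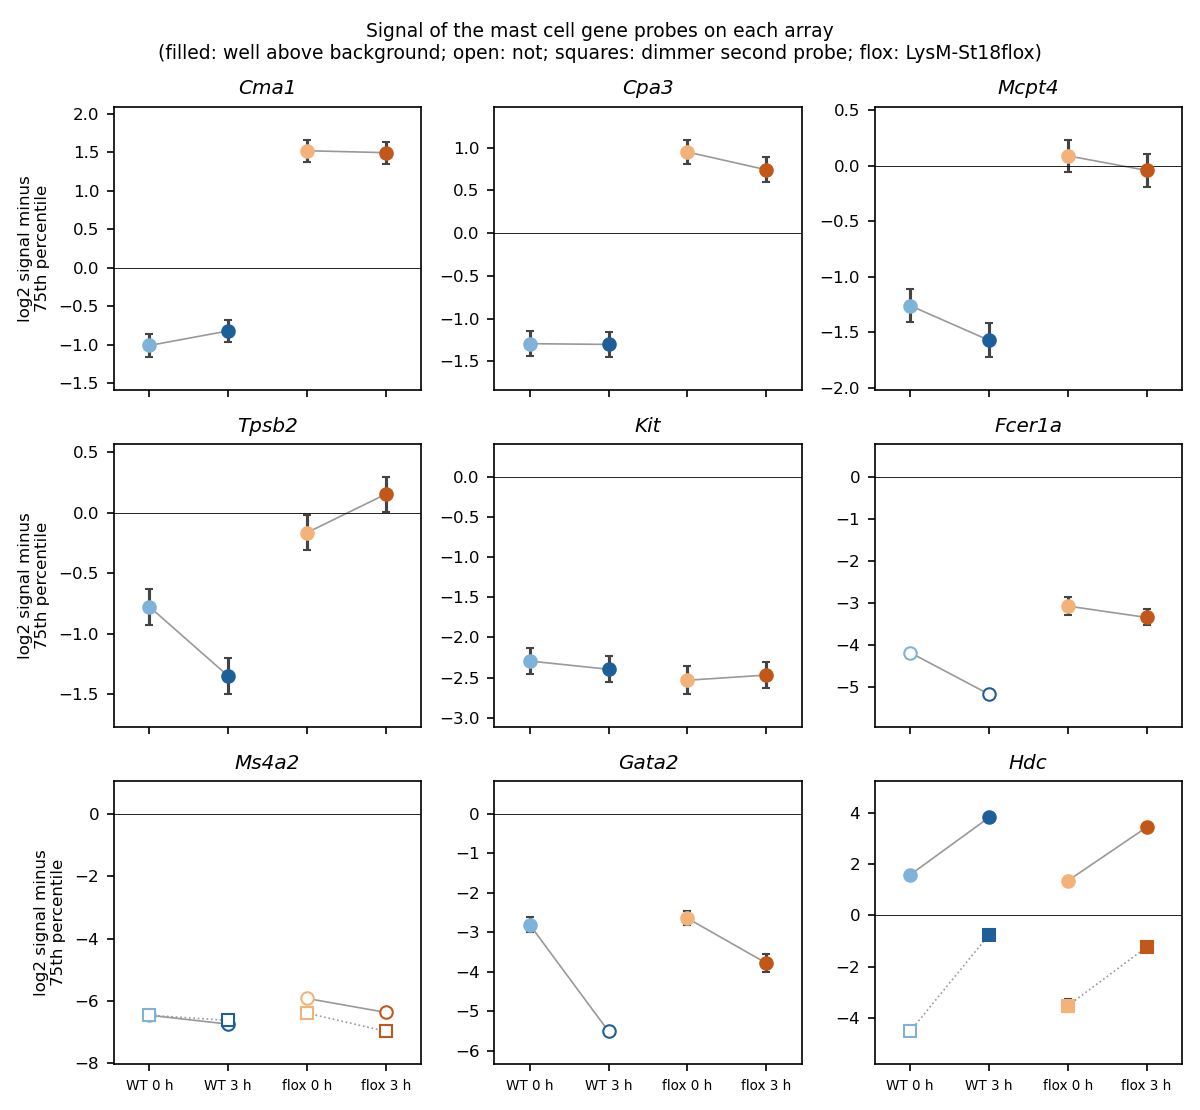
Level of each mast cell gene probe on the 4 arrays, as log2 signal minus the array's 75th percentile (vertical axis, with its own range in each panel); points are single arrays, bars are the software's spot error, open symbols are spots not well above background, and WT and flox stand for wild-type and LysM-St18flox. Cma1, Cpa3, Mcpt4 and Tpsb2 lie higher in both LysM-St18flox arrays than in both wild-type arrays, Kit is level, and Hdc is higher at 3 h in both genotypes.

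The 4 granule protease genes were higher in LysM-St18flox cells at both times. Cma1, the chymase of connective tissue mast cells, was 5.78-fold higher at 0 h and 4.98-fold higher at 3 h, and Cpa3, which encodes mast cell carboxypeptidase A3, 4.74-fold and 4.13-fold. Mcpt4, a second chymase gene, was 2.55-fold and 2.88-fold higher. Tpsb2, a mast cell tryptase gene, was 1.53-fold higher at 0 h and 2.83-fold higher at 3 h. In RNA from a mixture of cells, more mast cells, more of these transcripts per mast cell and transcripts from other cells cannot be told apart.

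Cma1 had a level of -1.01 ± 0.15 in wild-type 0 h, -0.82 ± 0.15 in wild-type 3 h, 1.52 ± 0.14 in LysM-St18flox 0 h and 1.5 ± 0.14 in LysM-St18flox 3 h. Both LysM-St18flox arrays were far above both wild-type arrays, and the 2 arrays of a genotype lay close together. The genotype difference was 2.53 ± 0.21 (log2) at 0 h and 2.32 ± 0.21 at 3 h. Among all genes measured in the same comparison, 0.197% had a difference as high or higher at 0 h, and 0.192% at 3 h.

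Cpa3 stood at -1.29 ± 0.15 in wild-type 0 h, -1.30 ± 0.15 in wild-type 3 h, 0.95 ± 0.14 in LysM-St18flox 0 h and 0.74 ± 0.14 in LysM-St18flox 3 h. It thus followed the order of Cma1, high in both LysM-St18flox arrays and low in both wild-type arrays. The genotypes differed by 2.24 ± 0.21 at 0 h and by 2.04 ± 0.21 at 3 h. At 0 h 0.347% of measured genes were as high or higher, and at 3 h 0.284%.

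Mcpt4 had levels of -1.26 ± 0.15 in wild-type 0 h, -1.57 ± 0.15 in wild-type 3 h, 0.09 ± 0.15 in LysM-St18flox 0 h and -0.04 ± 0.14 in LysM-St18flox 3 h. The differences were 1.35 ± 0.21 at 0 h and 1.53 ± 0.21 at 3 h. For Tpsb2 the levels were -0.77 ± 0.15 in wild-type 0 h, -1.35 ± 0.15 in wild-type 3 h, -0.16 ± 0.15 in LysM-St18flox 0 h and 0.15 ± 0.14 in LysM-St18flox 3 h. Tpsb2 had the smallest genotype difference of the 4 at 0 h, 0.61 ± 0.21, with 7.82% of measured genes as high or higher. At 3 h its difference was 1.5 ± 0.21 and that share was 0.659%.

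Mcpt4 and Cma1 lie in 1 gene cluster of mast cell and granulocyte proteases on chromosome 14, and only some genes of that cluster gave signal. Between Cma1 and Mcpt4 in gene order, Cma2, a chymase paralogue, had signal on all 4 arrays, with genotype differences of 0.68 at 0 h and 0.98 at 3 h. For Mcpt1, Mcpt2 and Mcpt9, which follow it, no array gave a spot well above background. The same held for Mcpt8, a basophil protease gene next to Mcpt4. Ctsg, the cathepsin G gene beyond it, was above background in the LysM-St18flox arrays only (-3.58 at 0 h and -3.47 at 3 h) with bounds of at least 1.48-fold higher (0 h) and at least 1.91-fold higher (3 h). Probes of such paralogues can share sequence, and how far they cross-hybridise was not tested. Beside Tpsb2, Tpsg1, which encodes the transmembrane tryptase gamma, was likewise above background in the LysM-St18flox arrays only, at -2.36 at 0 h and -2.55 at 3 h. It was at least 3.45-fold higher at 0 h and 3.63-fold higher at 3 h. Tpsab1, the other soluble tryptase gene of this locus, had no probe matched by accession.

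RefSeq promoters (build GRCm38.p6) were listed for 8 of the 9 members, in 10 start sites; Tpsb2 had none. The 250 bases before the start are given for the 3 listed granule proteases and for Fcer1a, the members that were higher in LysM-St18flox cells, and for Hdc, which was not, so that the GATA-type motif can be compared. Capitals mark GATAA or its reverse complement TTATC.
Cma1 (chr14:55944676-55944925, minus strand): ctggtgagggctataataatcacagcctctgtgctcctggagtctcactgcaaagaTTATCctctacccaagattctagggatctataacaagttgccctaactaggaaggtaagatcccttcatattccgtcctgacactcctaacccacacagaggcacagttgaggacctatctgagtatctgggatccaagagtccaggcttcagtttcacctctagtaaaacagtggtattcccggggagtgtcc
Cpa3 (chr3:20242182-20242431, minus strand): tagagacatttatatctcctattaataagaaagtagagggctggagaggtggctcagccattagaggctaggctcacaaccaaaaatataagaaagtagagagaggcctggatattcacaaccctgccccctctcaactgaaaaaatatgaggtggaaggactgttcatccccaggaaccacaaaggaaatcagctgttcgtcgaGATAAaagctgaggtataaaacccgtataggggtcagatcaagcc
Mcpt4 (chr14:56062311-56062560, minus strand): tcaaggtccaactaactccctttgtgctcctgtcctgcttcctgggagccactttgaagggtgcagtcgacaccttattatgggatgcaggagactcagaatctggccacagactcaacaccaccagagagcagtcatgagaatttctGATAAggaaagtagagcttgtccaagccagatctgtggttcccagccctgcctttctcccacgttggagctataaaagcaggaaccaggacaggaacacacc
Fcer1a (chr1:173227230-173227479, minus strand): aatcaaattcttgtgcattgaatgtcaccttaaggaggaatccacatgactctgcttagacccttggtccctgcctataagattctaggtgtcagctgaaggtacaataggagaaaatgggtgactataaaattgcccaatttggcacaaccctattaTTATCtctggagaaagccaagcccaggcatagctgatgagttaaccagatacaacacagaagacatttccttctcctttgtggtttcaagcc
Hdc (chr2:126618679-126618928, minus strand): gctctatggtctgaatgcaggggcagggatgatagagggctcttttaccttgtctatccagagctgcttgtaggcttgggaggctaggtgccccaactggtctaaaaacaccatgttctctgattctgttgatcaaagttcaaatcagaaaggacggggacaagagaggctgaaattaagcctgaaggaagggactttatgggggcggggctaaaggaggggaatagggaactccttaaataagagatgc
The motif occurs once in the Cma1, Cpa3, Mcpt4 and Fcer1a windows, with its first base 194, 45, 102 and 92 bases before the start. It occurs 3 times in the window of Ms4a2, which was not detected on any array, and not in those of Hdc, Kit or Gata2. Of all 32851 listed promoters, 22.6% held it in the same window on either strand. The E-box motif CANNTG was in 4 of the members' 10 windows and in 66.2% of all. A match of letters is a description of these windows only.

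The receptor genes did not follow the proteases as a group. Kit, the stem cell factor receptor gene, was level across the arrays. Fcer1a, which encodes the IgE-binding alpha chain of FcεRI, was detected in LysM-St18flox cells only, and Ms4a2, which encodes the beta chain, was not detected. Kit had a level of -2.29 ± 0.17 in wild-type 0 h, -2.40 ± 0.16 in wild-type 3 h, -2.53 ± 0.17 in LysM-St18flox 0 h and -2.47 ± 0.16 in LysM-St18flox 3 h. LysM-St18flox minus wild-type was -0.24 ± 0.24 at 0 h and -0.07 ± 0.23 at 3 h, neither larger than the error of the spots.

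Fcer1a had a processed signal of 36.9 in wild-type 0 h and 20.9 in wild-type 3 h, both not well above background. In LysM-St18flox cells the signal was 126 at 0 h and 86.5 at 3 h, with levels of -3.08 ± 0.21 and -3.35 ± 0.19. Both LysM-St18flox arrays thus exceeded wild-type, by at least 2.09-fold (0 h) and at least 2.08-fold (3 h). Such a bound divides the bright signal by whichever is larger on the dim array, the probe's own signal or the lowest one well above background. Of genes above background on 1 array only, 21.9% at 0 h and 15.8% at 3 h passed 2-fold by such a bound in the same direction. These genes include those seen in wild-type only, which could not pass in that direction. Both Ms4a2 probes stayed at background on the 4 arrays, with signals between 7.01 and 17.6. The gamma chain gene Fcer1g, which macrophages share with mast cells, was bright on all arrays (7.55, 7.67, 7.04 and 7.37 in the order wild-type 0 h, wild-type 3 h, LysM-St18flox 0 h and LysM-St18flox 3 h), and differed by -0.51 at 0 h and -0.30 at 3 h.

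Gata2, the transcription factor gene of the lineage, was near its limit of detection. Its level was -2.80 ± 0.19 in wild-type 0 h, -2.64 ± 0.18 in LysM-St18flox 0 h and -3.78 ± 0.22 in LysM-St18flox 3 h, and it was not well above background in wild-type 3 h. At 0 h the genotypes differed by 0.16 ± 0.26, less than the spot error, and the sign turned with normexp background correction (-0.11). At 3 h LysM-St18flox cells exceeded wild-type by at least 1.55-fold.

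Hdc encodes histidine decarboxylase, the enzyme that makes histamine, and it did not follow the proteases. By its brighter probe the level was 1.58 ± 0.14 in wild-type 0 h, 3.82 ± 0.14 in wild-type 3 h, 1.35 ± 0.14 in LysM-St18flox 0 h and 3.44 ± 0.14 in LysM-St18flox 3 h. The 3 h arrays of both genotypes were higher than both 0 h arrays. LysM-St18flox cells had slightly lower values at both times, by -0.23 ± 0.20 at 0 h and -0.38 ± 0.20 at 3 h. The dimmer Hdc probe gave -0.48 ± 0.21 at 3 h, and at 0 h it was above background in LysM-St18flox cells only, at least 1.53-fold higher, which is opposite in sign to the brighter probe.

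Counting all 9 members, 3 passed 2-fold higher in LysM-St18flox cells at 0 h (Cma1, Cpa3 and Mcpt4) and 4 at 3 h (with Tpsb2), against 3.04% and 1.82% of all measured genes. Fcer1a was higher by a bound at both times, and no member was at least 2-fold lower at either time, against 3.03% and 1.4% of all measured genes. At 0 h 7 members were measured on both arrays, with a median of 0.61, and the median over all 12679 measured genes was -0.03. At 3 h 6 were measured, with a median of 1.51, against -0.01 over 13049 genes. The 0 h median was 0.98 with a stricter filter on dim probes and 1.01 in the authors' deposited log2 values, both of which leave out Gata2. The comparisons at 0 h and 3 h use different arrays, though the labels do not say whether the cells of a genotype came from 1 mouse. Of 12344 genes measured everywhere, 0.834% passed 2-fold higher at both times and 0.454% passed 2-fold lower; Cma1, Cpa3 and Mcpt4 were among the former.

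**Figure D2:**
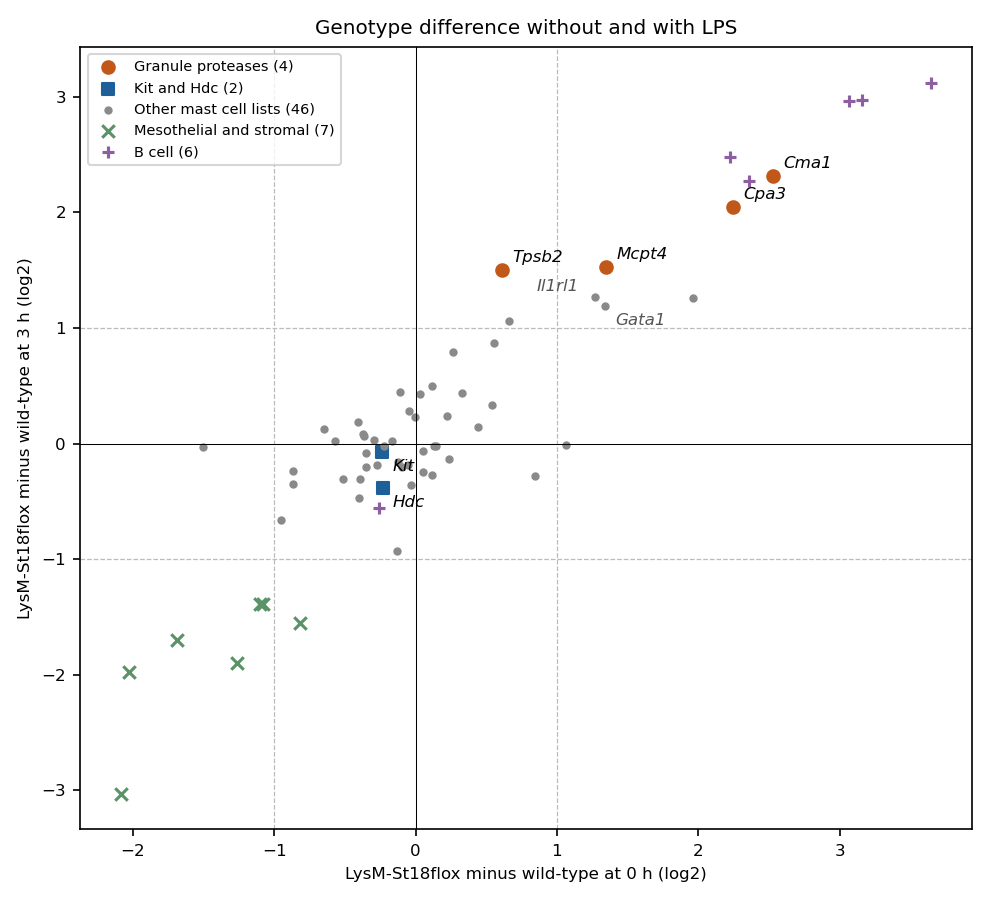
Genotype difference (LysM-St18flox minus wild-type, log2) at 0 h on the horizontal axis and at 3 h on the vertical axis, 1 point per gene of the mast cell, B cell and mesothelial and stromal lists that was measured on all 4 arrays, with dashed lines at a 2-fold difference. The 4 granule proteases lie in the upper right (Cma1 at 2.53 and 2.32), Kit and Hdc lie near 0, and mesothelial and stromal genes lie in the lower left.

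After LPS the members split in 3 ways: the proteases and Kit moved by less than 2-fold, Hdc was higher and Gata2 lower. Hdc was 4.72-fold higher at 3 h in wild-type cells (2.24 ± 0.20) and 4.25-fold higher in LysM-St18flox cells (2.09 ± 0.20). Its dimmer probe gave 2.29 ± 0.29 in LysM-St18flox cells, and in wild-type cells it was at least 10.4-fold higher. Among all measured genes, 9.04% were at least 2-fold higher after LPS in wild-type cells and 8.12% in LysM-St18flox cells. Hdc was the only member past 2-fold higher in either genotype, and 2.69% and 2.73% of measured genes had a difference as high or higher.

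Gata2 was lower after LPS in both genotypes. In wild-type cells it was above background at 0 h only, at least 3.03-fold lower at 3 h, and in LysM-St18flox cells it was 2.19-fold lower (-1.13 ± 0.29). Among measured genes, 8.97% passed 2-fold lower after LPS in LysM-St18flox cells and 11.6% in wild-type cells, where none of the 6 measured members did. Among genes with signal on 1 wild-type array only, 24.7% passed 2-fold lower by their bound. These genes include those seen at 3 h only, which could not pass lower. The LysM-St18flox value was -0.64 with normexp correction, -0.92 with quantile normalization and -0.90 when arrays were scaled to their median, so the 2-fold call did not hold there.

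The protease genes differed little between 0 h and 3 h. Cma1 differed by 0.19 ± 0.21 in wild-type cells and -0.03 ± 0.20 in LysM-St18flox cells, Cpa3 by -0.01 ± 0.21 and -0.21 ± 0.20, and Mcpt4 by -0.31 ± 0.21 and -0.13 ± 0.21. Kit differed by -0.10 ± 0.23 and 0.06 ± 0.23. Under other settings, Cpa3 and Kit changed sign in both genotypes, and Cma1 and Mcpt4 in LysM-St18flox cells. Fcer1a, measured in LysM-St18flox cells only, differed by -0.27 ± 0.28. Tpsb2 was the exception among the proteases, lower at 3 h in wild-type cells (-0.57 ± 0.21) and higher in LysM-St18flox cells (0.32 ± 0.21). The median over measured members was -0.06 in wild-type cells (6 members) and -0.08 in LysM-St18flox cells (8 members), beside -0.11 and -0.09 over all measured genes.

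**Figure D3:**
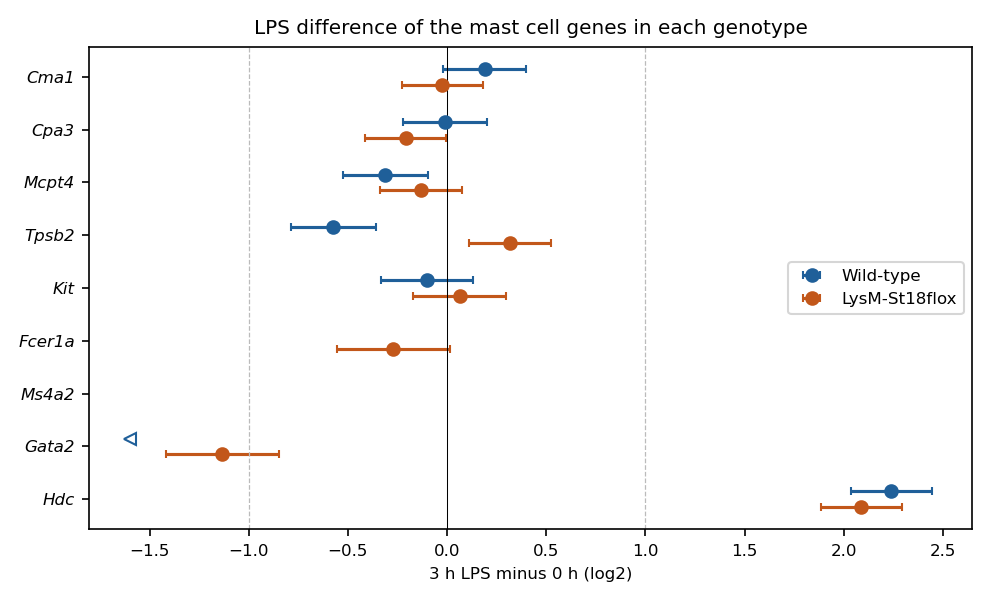
Difference between 3 h LPS and 0 h (log2, horizontal axis) for the brighter probe of each mast cell gene in wild-type and LysM-St18flox cells, with bars for the spot error and an open arrowhead for a bound. Hdc lies at 2.24 and 2.09, Gata2 lies below -1 in both genotypes, and the proteases, Kit and Fcer1a lie within 2-fold of 0.

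Other genes of mast cell biology were taken from 5 fixed lists of 63 genes, of which 61 had a probe. At 0 h 48 were measured, and LysM-St18flox cells had 4 of them past 2-fold higher and 1 past 2-fold lower (median -0.04). At 3 h 46 were measured, with 4 higher and 0 lower (median -0.02). Over all measured genes, 3.04% were higher and 3.03% lower at 0 h, and 1.82% and 1.4% at 3 h, so the share of these lists called higher was above that of all genes at both times, while their medians lay near the medians of all genes. Those higher at both times included Il1rl1 and Gata1, with Tpsg1 by its bounds.

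Il1rl1, the interleukin-33 receptor gene that mast cells express strongly, had levels of -0.64 in wild-type 0 h, -0.16 in wild-type 3 h, 0.63 in LysM-St18flox 0 h and 1.11 in LysM-St18flox 3 h. The genotype difference was 1.27 at both times. Its second probe was above background in the LysM-St18flox arrays only (-3.93 and -3.53), and its remaining probe in LysM-St18flox 3 h only. Gata1, a transcription factor gene of mast cells, eosinophils and erythroid cells, had levels of -1.0, -0.51, 0.34 and 0.68 in the same order. It was 1.34 higher at 0 h and 1.19 higher at 3 h.

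Among other granule genes, Slc18a2, the vesicular monoamine transporter that loads histamine and serotonin, was 1.06 higher at 0 h and differed by -0.01 at 3 h, with its lowest level on the wild-type 0 h array (-3.13, against -2.29 to -2.07 on the others). Srgn, the core proteoglycan of granules, was bright on all arrays and differed by -0.37 and 0.06. Ndst2, which sulphates heparin, differed by -0.65 and 0.12. In IgE receptor and KIT signalling, 19 of 21 genes were measured at each time, with medians of -0.03 and -0.06. Lat, an adaptor, differed by 0.66 and 1.06, and Kitl, the KIT ligand, by 0.56 and 0.87 by its brightest probe. The dimmer Kitl probes differed less where both arrays were above background. One had -3.99 in wild-type and -3.74 in LysM-St18flox cells at 0 h, and the other -4.11 and -4.05 at 3 h. Syk, the kinase downstream of the receptor, differed by 0.12 and -0.27 by its brightest probe. The second Syk probe was lower in LysM-St18flox cells at both times (0.65 against 0.42 at 0 h, and 1.61 against 1.09 at 3 h). Of the transcription factors, Mitf, a regulator of Kit and the proteases, differed by 0.44 and 0.15 by its brightest probe. Its other probes went the other way at both times. One had 3.28 in wild-type and 2.82 in LysM-St18flox cells at 0 h, and 3.73 and 3.52 at 3 h; the other had 3.73 and 3.23 at 0 h, and 4.19 and 3.97 at 3 h. The direction for Mitf therefore depends on the probe. Among histamine and eicosanoid genes no measured gene was at least 2-fold higher at either time; Hnmt, which inactivates histamine, differed by 0.23 and 0.24 by its brightest probe (its second probe was lower at 0 h, -0.07 against 0.09 in wild-type), and Hpgds, the prostaglandin D synthase of mast cells, by 0.33 and 0.44. Hrh4, a histamine receptor gene, was lower at 0 h (-1.5) and differed by -0.03 at 3 h. Mrgprb1 was not above background on any array, and Mrgprb2, the secretagogue receptor gene of connective tissue mast cells, only on wild-type 3 h (-2.77).

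Across the same 5 lists, LPS gave 6 genes at least 2-fold higher and 5 lower of 46 measured in wild-type cells, and 4 higher and 2 lower of 49 in LysM-St18flox cells, beside 9.04% higher and 11.6% lower, and 8.12% and 8.97%, over all measured genes. Lcp2, an adaptor of receptor signalling, was higher by 2.63 and 2.60, Stat5a by 2.79 and 3.38 by its brightest probe, and Lyl1, a haematopoietic transcription factor gene, was lower (-3.84 and -3.47). The second Stat5a probe moved less, from 2.04 to 2.37 in wild-type cells and from 1.65 to 2.28 in LysM-St18flox cells.

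Cells other than mast cells carry some of these genes, and marker lists for them were read in the same way. Of 6 basophil markers, Mcpt8, Itga2 and Il13 were not above background on any array. Il4 was higher in LysM-St18flox cells by 1.24 and 1.72, Cd200r3 by bounds (at least 2.11-fold and 2.19-fold), and Prss34 was 0.47 higher at 3 h. The summed signal of basophil markers above background, in multiples of the 75th percentile, was 0.39 in wild-type 0 h, 0.74 in wild-type 3 h, 1.05 in LysM-St18flox 0 h and 2.41 in LysM-St18flox 3 h. It held 1, 2, 2 and 3 genes in that order and consisted mostly of Il4, so it is not a value for basophil markers as a class. The defining eosinophil granule genes Prg2 and Epx were not above background on any array. Of 6 measured eosinophil markers, 3 at 0 h and 1 at 3 h were at least 2-fold higher, against 3.04% and 1.82% of all genes. Il5ra, the interleukin-5 receptor gene, was higher by 1.52 and 1.48. Siglecf (1.19 and 0.88), Ccr3 (1.12 and 0.81), Ear1 (0.73 and 0.55) and Ear2 (0.86 and 0.77) were less so. By its brightest probe Ear6 was lower at 0 h (-0.92) and higher at 3 h (0.67). The eosinophil sum, over the same number of genes on each array (6), was 6.88 in wild-type 0 h, 7.68 in wild-type 3 h, 13.6 in LysM-St18flox 0 h and 13.6 in LysM-St18flox 3 h. The sum of the 4 mast cell proteases was 1.91, 1.70, 6.76 and 6.57 in that order. Sums of different probes can be read across arrays only, not against each other, and give no relative amounts of these cells.

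Markers of several other cell types differed between the genotypes too. Over all measured genes, 3.04% passed 2-fold higher and 3.03% lower at 0 h, and 1.82% and 1.4% at 3 h. Of the B cell markers, 5 of 6 measured passed 2-fold higher at each time, while Pax5 differed by -0.26 at 0 h and -0.56 at 3 h. The B cell sum was 3.88 in wild-type 0 h, 2.98 in wild-type 3 h, 22.5 in LysM-St18flox 0 h and 17.8 in LysM-St18flox 3 h. Of the T and NK cell markers, 2 of 4 measured were higher and 1 lower at 0 h, and 3 of 6 higher at 3 h. Cd3d, a chain of the T cell receptor complex, was higher by 1.48 and 1.37 and Cd2, an adhesion molecule, by 1.74 and 1.60, while Cd3g was at least 5.27-fold higher at 0 h and 1.37 higher at 3 h. Cd4 was lower at 0 h (-1.04) and differed by 0.10 at 3 h, and Cd3e differed by -0.17 and -0.10. Klrb1c was measured at 3 h only, where it differed by -0.89, and Cd8a and Ncr1 were not above background on any array. The T and NK cell sum was 5.46 in wild-type 0 h, 4.55 in wild-type 3 h, 7.44 in LysM-St18flox 0 h and 8.08 in LysM-St18flox 3 h. Erythroid markers had 4 of 4 higher at 0 h and 5 of 5 at 3 h (sums 11.2, 9.69, 82.7 and 96.6). The genes above background behind these sums differed between arrays, from 6 to 7 for B cell, 4 to 6 for T and NK cell and 4 to 6 for erythroid markers. Large peritoneal macrophage markers had 4 and 3 of 8 higher, while Gata6, the defining factor of these cells, differed by 0.14 and 0.59. Progenitor markers had only Ly6a higher, by 1.89 and 2.30. Mesothelial and stromal markers had 6 of 7 lower at 0 h and 7 of 7 at 3 h, and neutrophil markers 4 of 7 lower at 0 h and 3 of 6 at 3 h. Retnlg, a neutrophil marker, went the other way, 0.81 higher at 0 h and 1.11 at 3 h. Macrophage markers had medians of -0.25 and -0.08, with 1 of 8 higher at 0 h (Lyz2, 1.20, against -0.23 at 3 h) and sums of 690 in wild-type 0 h, 773 in wild-type 3 h, 609 in LysM-St18flox 0 h and 715 in LysM-St18flox 3 h, and all 8 were well above background on every array. The part of these cell types in the values of the mast cell genes was not tested.

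**Figure D4:**
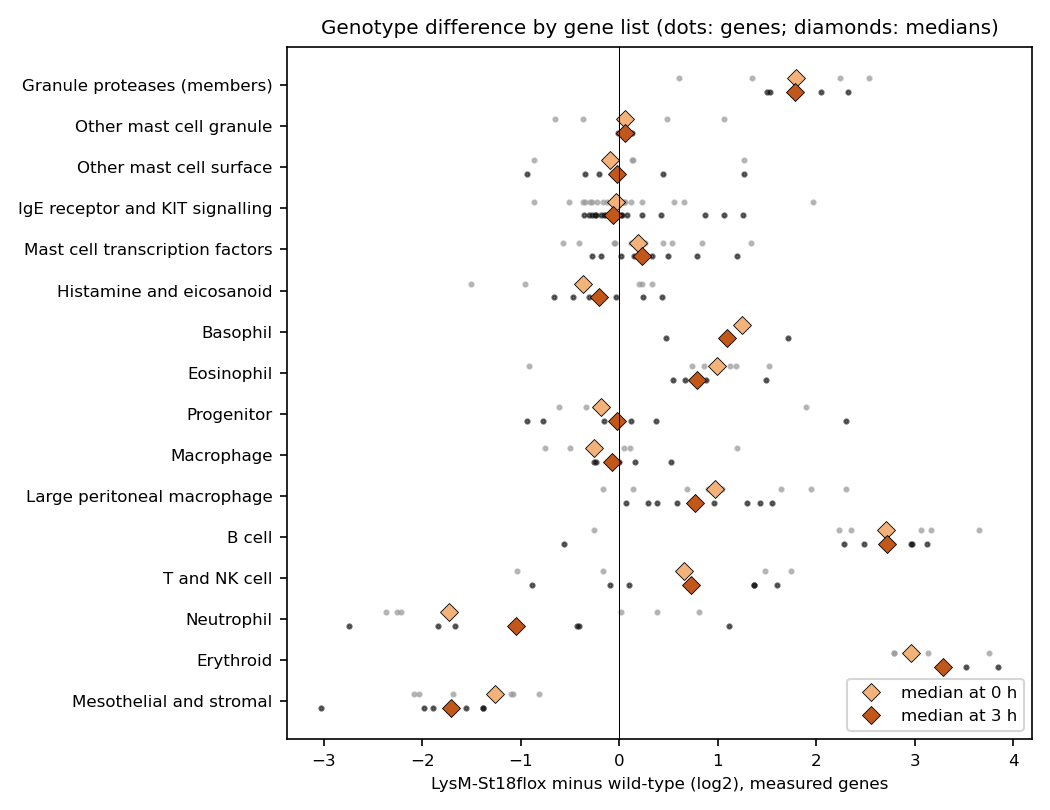
Genotype difference (LysM-St18flox minus wild-type, log2, horizontal axis) of the measured genes of each list at 0 h (grey dots) and 3 h (black dots), with diamonds for the medians. The 4 granule proteases have medians of 1.80 and 1.79, between those of the large peritoneal macrophage and B cell markers, while the medians of the other mast cell lists lie between -0.37 and 0.24.

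The genes whose pattern over the 4 arrays was most like that of the proteases were sought among 3827 named genes that were measured on all arrays and spanned at least 2-fold. Likeness was the Euclidean distance between centred log2 profiles, with the mean of the 4 proteases as the target. The 8 nearest were Gimap1 (distance 0.17), Retnla (0.18), Bank1 (0.18), Fcer2a (0.22), Ptprcap (0.24), Cdkn1c (0.26), Zdhhc22 (0.26) and Cd5 (0.27). The proteases' own distances to their mean were 0.35 for Mcpt4, 0.42 for Cpa3, 0.71 for Cma1 and 0.80 for Tpsb2. The 8 named genes lay nearer, but they were picked as the nearest of 3827. Their distances therefore say nothing about how alike the proteases are. Kit lay at 1.92 and Hdc at 3.07. Bank1, Fcer2a and Cd5 are lymphocyte genes, and Retnla encodes a secreted protein of alternatively activated macrophages. With 4 arrays, this pattern amounts to being higher in LysM-St18flox cells and level after LPS, and Retnla shows it at levels of 3.46, 3.44, 5.26 and 5.38 in the order wild-type 0 h, wild-type 3 h, LysM-St18flox 0 h and LysM-St18flox 3 h.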

How the data were processed

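Gene expression was measured with Agilent 1-colour (Cy3) arrays, 1 per group. Agilent Feature Extraction 11.0.1.1 produced the deposited spot intensity values, as stated by headers and processing notes alike; their 75th percentiles differ between arrays. The deposited value table holds log2 values, and no source used here states how they were made. Its 4 columns hold the same sorted values (within 0.000362), each correlating with its own array at 0.99994 or more, and its centring stays unknown.

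Probes were named through RefSeq accessions (GRCm38.p6 table): 32994 of 35886 RefSeq probes matched 1 symbol. The headers name build mm9, so that table gave names and gene order only; promoter positions come from RefSeq. From the deposited intensities, spots of a probe were averaged as log2 values without outlier spots, and each array's 75th percentile over all non-control spots was subtracted. A gene was read from its brightest probe and counted as measured when well above background and not saturated on both arrays. Lacking replicates, no p-values were calculated, and a gene is counted when it differs by 2-fold or more. The difference and count steps were tested on simulated data with every probe above background and 1 probe per gene. The background filter, the choice of probe and the bounds were not tested there. Python 3.11.15 and, for normexp, limma 3.58.1 were used; normexp took median spot signals. Named were all member probes, genes of the other mast cell and basophil lists past 2-fold at both times with up to 6 more per list, and up to 3 per cell type list. Gene neighbours of the proteases, markers such as Gata6, Pax5, Cd4, Cd3e, Klrb1c, Ear6 and Retnlg, and Gzme were added after values were seen. Members and lists were chosen with earlier results of these data known. Between 52.2% and 55.6% of spots were well above background. Some genes of the lists are counted but not reported here by name.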

Additional observations from a re-analysis of the deposited data

Results flagged for a closer look

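Tpsb2 had LPS differences of opposite sign in the genotypes, each larger than its spot error: -0.57 in wild-type cells and 0.32 in LysM-St18flox cells, which are 0.89 ± 0.30 (log2) apart. Among 12344 genes, 6.94% had LPS differences at least as far apart. It was read from 1 probe, with 1 array per group, and the difference was not tested. The wild-type value uses the wild-type 0 h array, whose probes disagreed most. Over the alternative settings the wild-type value ranged from -0.66 to -0.36 and the LysM-St18flox value from 0.23 to 0.55.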

How the results depend on the processing

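With 8 other settings, 198 of 210 values of single members moved by less than their spot error, 12 moved by more, and none of at least 2-fold changed sign. Cma1 and Cpa3 passed 2-fold higher at both times in all 8, at 2.39 to 2.62 and 1.99 to 2.31 at 0 h, and 2.16 to 2.34 and 1.90 to 2.06 at 3 h. Mcpt4 ranged from 1.14 to 1.39 and from 1.20 to 1.55, and Tpsb2 from 0.47 to 0.64 and from 1.30 to 1.52. The median genotype difference of measured members was 0.98 at 0 h with the stricter filter and 1.01 in the deposited values, which measured 6 members in place of 7, and 1.25 at 3 h with normexp correction. Without a background filter, 1 of all 9 members passed 2-fold lower in the wild-type LPS difference, with a median of -0.28. In LysM-St18flox cells 0 members were at least 2-fold lower after LPS with normexp correction, quantile normalization, scaling to the median, the stricter filter and the deposited values, and scaling to the median gave a member median of 0.15. That scaling moved the median of all genes from -0.03 to -0.17 in the genotype difference at 0 h (295 genes higher and 662 lower, against 385 and 384) and from -0.09 to 0.14 in the LysM-St18flox LPS difference (1376 and 742, against 1054 and 1164). The 75th percentile over probes above background on all arrays gave 1012 higher and 1746 lower genes in the wild-type LPS difference, against 1138 and 1464. Normexp correction gave fewer calls over all genes, 229 higher and 251 lower in the genotype difference at 0 h, 137 and 96 at 3 h (against 237 and 183) and 757 lower in the LysM-St18flox LPS difference. With no background filter there were more: 1473 and 1347 at 0 h, 992 and 1039 at 3 h, 2215 and 2767 in the wild-type and 1835 and 2232 in the LysM-St18flox LPS difference. No paired analysis was possible because each group had 1 array. Of the members' spots, 12 of 44 were too dim to measure, which limits Ms4a2, Fcer1a and Gata2.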

Other observations

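Tph1, which encodes the tryptophan hydroxylase that mast cells use to make serotonin, gave probes that disagree. Its brightest probe was above background on 3 arrays, at -3.14 in wild-type 0 h, -2.65 in LysM-St18flox 0 h and -0.99 in LysM-St18flox 3 h. Its second probe was above background in wild-type 3 h only, at -0.89, the one array where the first was not, and the remaining probe on no array. Gzmb, a granzyme gene that mast cells can express, was above background in LysM-St18flox 3 h only (-2.74). Gzme, of the same gene cluster as Mcpt4, was above background at 3 h in both genotypes, at -2.22 in wild-type cells and -4.10 in LysM-St18flox cells.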
